A study of Mus musculus with 14 samples.

Results

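Glutamate and GABA are the main fast transmitters of the cerebral cortex, glycine is a fast inhibitory transmitter mainly of spinal cord and brainstem and a co-agonist of NMDA receptors, and the genes described here encode the subunits of their receptors. Members were taken by symbol: the AMPA, kainate, NMDA and delta glutamate receptor subunits, the metabotropic glutamate receptors, the GABA-A, rho and GABA-B subunits, and the glycine receptor subunits. The rule matched 52 of the 55359 genes with an Ensembl identifier in the count table. Of these, 43 passed the filter on low counts and were tested, and 9 did not (Gabra6, Gabrp, Gabrr1, Gabrr2, Gabrr3, Glra1, Glra4, Grin3b and Grm6).

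RNA of the cerebral cortex was sequenced in 14 mouse libraries, 4 from sham mice, 5 from mice 2 d and 5 from mice 7 d into a cerebral venous sinus thrombosis (CVST), in which clotting blocks the large venous channels of the brain. Each library was made from cortex of both hemispheres. The sources used here give no genotype, strain, sex or age, no time of collection for sham, and no way of inducing the clot. They number the samples without saying that each is a separate mouse, so p-values measure the spread between these samples, which may be technical.

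AMPA, kainate and NMDA receptors are cation channels assembled from several subunits and opened by glutamate, and their composition sets how fast they open and whether calcium passes. GABA-A and glycine receptors are chloride channels that inhibit adult neurons, while metabotropic glutamate receptors and GABA-B receptors signal through G proteins. Excess glutamate acting on the channels injures neurons when blood flow fails, which is why their subunits are commonly examined in stroke.

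At 2 d after CVST, 2 receptor subunit genes fell and none rose. Gria3, the GluA3 subunit of AMPA receptors, fell to a mean of 181 CPM from 274 in sham, and Gabra2, the alpha2 subunit of GABA-A receptors, fell to 38.0 CPM from 63.9 (CPM, counts relative to library size after TMM scaling). In edgeR's quasi-likelihood test over 16918 genes, a gene was called at a Benjamini-Hochberg adjusted p under 0.05, and 2.98% of all genes were called higher and 0.969% lower. The log2 fold change was below 0 in 39 of 43 tested members, with a median of -0.33, against 51.9% of all genes tested and a median of -0.01. In bulk tissue, fewer cells of a type and less RNA per cell cannot be told apart.

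At 7 d after CVST no member was called against sham, and none was called between 7 d and 2 d. The median log2 fold change of the members was -0.13 at 7 d against sham and 0.15 at 7 d against 2 d. All genes tested had medians of -0.01 and 0.01. The comparisons with sham share the sham samples and those with 2 d share the 2 d samples, so their values are set side by side and are not independent.

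**Figure D1:**
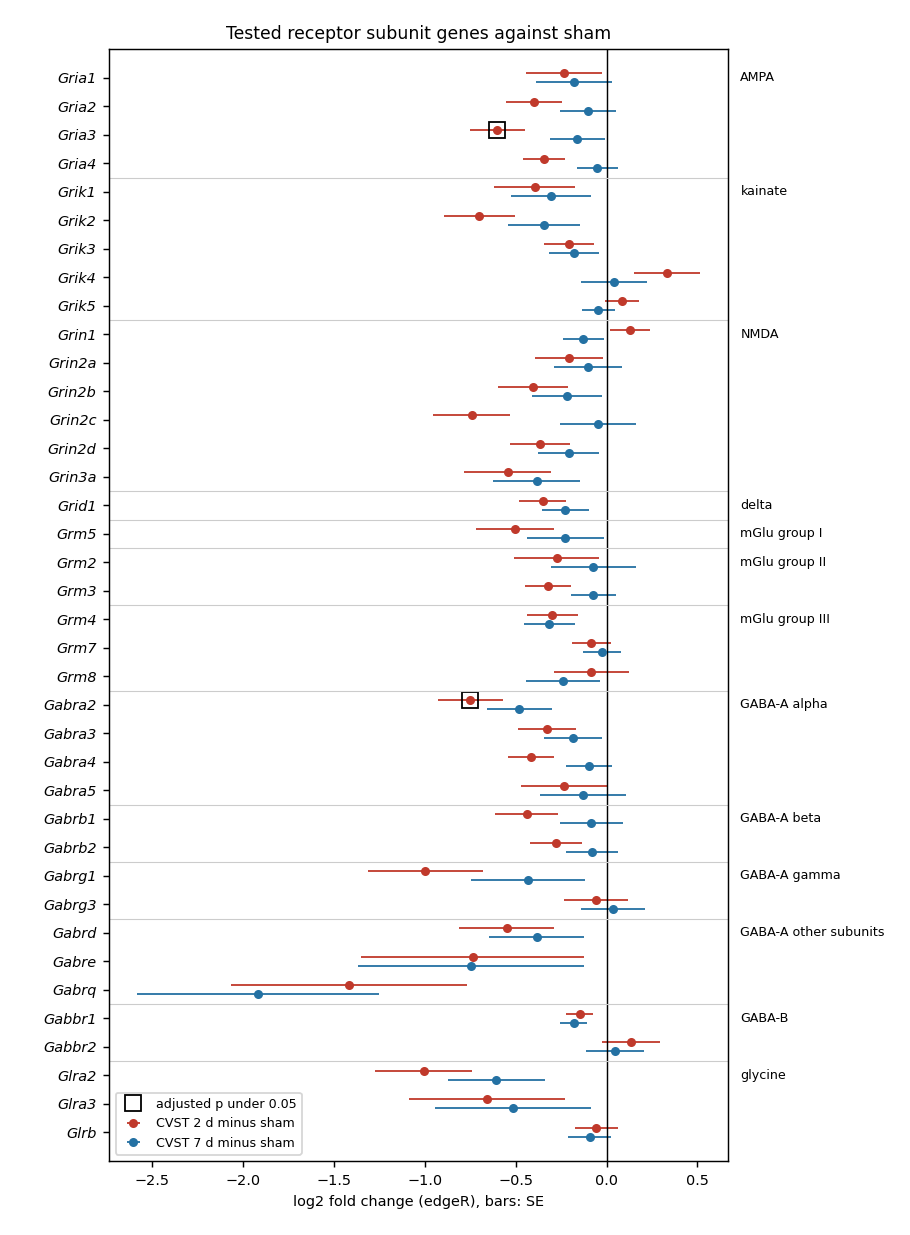
The log2 fold change with its SE is plotted for 38 of the 43 tested receptor subunit genes, grouped by class, at 2 d (red) and 7 d (blue) after CVST against the same 4 sham samples, and squares mark an adjusted p under 0.05. Most points lie below 0, with 34 of these 38 under 0 at 2 d and 35 at 7 d, and the squares are on Gria3 and Gabra2 at 2 d.

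Gene totals were 14.7 to 20.8 M counts per library (M for mega), and the receptor genes together took 0.665% ± 0.0373 (SD, n = 4) of them in sham, 0.586% ± 0.0536 (SD, n = 5) at 2 d and 0.630% ± 0.0624 (SD, n = 5) at 7 d. Markers of cortical layers were present, and of the cerebellum and hindbrain markers Hoxa5 was at 0 in every library. The 10 genes of that list summed to 8.76 to 14.1 CPM in sham, 7.41 to 25.2 at 2 d and 10.02 to 18.25 at 7 d, most of it from Car8, a cerebellar Purkinje cell marker, with 10.1 CPM in sham and 18.2 at 2 d (edgeR adjusted p = 0.161). On the first principal component of all genes, CVST 2 d 5 (-26.7) and CVST 7 d 2 (-26.9) lay beside sham (-48.2 to -27.3), and the other CVST libraries were at 1.48 to 49.1. The summed striatum markers stood at 1378 to 1827 CPM in sham 2, sham 4, CVST 2 d 5 and CVST 7 d 5 and at 264 to 579 CPM in the other 10 libraries. Of those 12 genes all were below 0 at both times and none was called, and their part in the results below was not tested.

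The pan-neuronal markers summed to 8036 to 9053 CPM in sham, 7869 to 9200 at 2 d and 6478 to 9852 at 7 d. None of the 12 was called at either time (median log2 fold change 0.03 at 2 d and -0.12 at 7 d), nor was any of the 12 excitatory neuron markers (-0.04 and 0.02). Among 12 inhibitory interneuron markers Dlx1 was lower at 7 d, and that call ended when any 1 library was left out. The interneuron list had a median log2 fold change of -0.233 at 2 d, with 8 of 12 genes below 0. At 7 d its median was -0.189, with 10 of 12 below 0. Microglia and macrophage markers were higher for 2 of 12 genes at 2 d and 10 of 12 at 7 d, with sums of 289 to 329 CPM in sham, 359 to 852 at 2 d and 408 to 1489 at 7 d. Among 12 astrocyte markers Gfap and Aldh1l1 were called higher at 2 d and Gfap and Aqp4 at 7 d, and none was called lower. The list as a whole had a median log2 fold change of -0.063 at 2 d, with 6 of 12 genes below 0, and at an unadjusted p under 0.05 it held 4 lower genes (Gja1, Slc1a2, Slc1a3 and Slc4a4) and 3 higher. At 7 d the median was 0.26, with 1 of 12 below 0. None of the markers of these lists was at 0 in all libraries of a group, and their part in the receptor results was not tested.

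The stretches of 250 bases before the start of 4 member genes are shown for these reasons: Gabra2 was called lower at 2 d, Glra2 just missed the threshold (adjusted p = 0.0501), Gria2 carries the most abundant AMPA subunit message per length in sham, and Grin1 is 1 of 4 members above 0 at 2 d. They are RefSeq sequences of build GRCm38.p6 in the direction of transcription, lower case with each CG pair in capitals.
Gabra2 (chr5:71095850-71096099, minus strand): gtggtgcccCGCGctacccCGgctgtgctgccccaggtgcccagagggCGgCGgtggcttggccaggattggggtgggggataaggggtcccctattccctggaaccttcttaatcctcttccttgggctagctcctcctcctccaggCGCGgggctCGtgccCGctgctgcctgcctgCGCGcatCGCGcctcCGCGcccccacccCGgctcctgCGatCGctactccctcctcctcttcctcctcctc
Glra2 (chrX:165327394-165327643, minus strand): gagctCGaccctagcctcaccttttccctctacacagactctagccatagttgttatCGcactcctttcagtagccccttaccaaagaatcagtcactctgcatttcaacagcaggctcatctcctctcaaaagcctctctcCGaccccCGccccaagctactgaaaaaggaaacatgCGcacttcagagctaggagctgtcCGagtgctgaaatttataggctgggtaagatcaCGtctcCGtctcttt
Gria2 (chr3:80802836-80803085, minus strand): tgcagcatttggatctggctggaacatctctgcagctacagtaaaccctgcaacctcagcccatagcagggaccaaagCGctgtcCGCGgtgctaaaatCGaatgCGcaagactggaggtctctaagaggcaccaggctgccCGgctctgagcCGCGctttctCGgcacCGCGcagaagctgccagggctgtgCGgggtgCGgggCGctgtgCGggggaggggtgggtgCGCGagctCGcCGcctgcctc
Grin1 (chr2:25319188-25319437, minus strand): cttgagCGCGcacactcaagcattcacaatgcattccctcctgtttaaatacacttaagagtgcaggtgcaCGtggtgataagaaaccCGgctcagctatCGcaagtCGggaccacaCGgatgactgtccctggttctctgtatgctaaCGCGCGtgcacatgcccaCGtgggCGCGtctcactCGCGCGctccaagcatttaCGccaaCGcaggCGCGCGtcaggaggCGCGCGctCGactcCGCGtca

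Of the 52 members, 36 had such a window, and Gria3 had none. The members' windows held a median of 9 CG pairs (range 0 to 42), against 6 in all 32851 windows. The windows printed above held 18 CG pairs for Gabra2, 8 for Glra2, 19 for Gria2 and 27 for Grin1. On both strands, the cyclic AMP response element TGACGTCA was found in 0 of 36 windows (1.55% of all windows) and TATAAA in 4, those of Gabra3, Gabrb2, Glra2 and Grin3b (12.4% of all). Of the parts of the RE1 element, by which neuronal genes are silenced in other cells, TTCAGCACC was found before Grm2 (0.301% of all) and GGACAGCG before Gria2 (0.992% of all), there on the opposite strand 172 bases before the start. A match of letters is a description of the window and not evidence of binding.

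AMPA receptors carry most of the fast excitatory current in cortex. Gria3 (ENSMUSG00000001986) was measured at 289, 295, 269 and 243 CPM in sham 1 to 4. At 2 d its values were 123, 189.9, 192, 157.5 and 240.0 CPM, and at 7 d 289.6, 227, 248, 248 and 212 CPM. All 5 libraries at 2 d lay below the lowest sham library, the highest of them being CVST 2 d 5, while the 7 d values overlapped both other groups. The log2 fold change at 2 d was -0.60 ± 0.15 (SE) (edgeR quasi-likelihood adjusted p = 0.0424), at 7 d against sham -0.16 ± 0.15 (SE) (adjusted p = 0.603), and at 7 d against 2 d 0.44 ± 0.14 (SE) (adjusted p = 0.106). When 1 library was left out, the call at 2 d held without CVST 2 d 5 (adjusted p = 0.00621) and was lost without any other single library of the comparison (0.0729 to 0.133). Without the 4 libraries high in striatum markers the log2 fold change was -0.75 (adjusted p = 0.033). The 2 d call ended in 4 of 11 other fits (0.0559 to 0.116). These were the fit with only the 2 groups compared, the replicate block, limma on log2 FPKM and pan-neuronal scaling.

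The other AMPA subunits were below 0 at 2 d and none was called. Gria2, whose edited subunit keeps calcium out of the channel, had -0.40 ± 0.15 (SE) (adjusted p = 0.149) at 2 d, with 670.4 CPM ± 51.6 (SD, n = 4) in sham and 508 CPM ± 129 (SD, n = 5) at 2 d. Gria4, a subunit of interneurons in particular, had -0.34 ± 0.12 (SE) (adjusted p = 0.104), and Gria1, which is added to synapses as they strengthen, had -0.23 ± 0.21 (SE) (adjusted p = 0.553). At 7 d the 4 genes lay between -0.18 and -0.05 against sham. By FPKM, which is scaled to gene length so that genes can be compared, Gria2 made up 38.5% of the AMPA sum in sham and 37.1% at 2 d, Gria1 31.9% and 34.8%, Gria3 18.2% and 15.9%, and Gria4 11.4% and 12.2%. The share of Gria3 spread over 16.5% to 20.3% in sham and 12.3% to 19.3% at 2 d, so that the ranges overlapped.

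**Figure D2:**
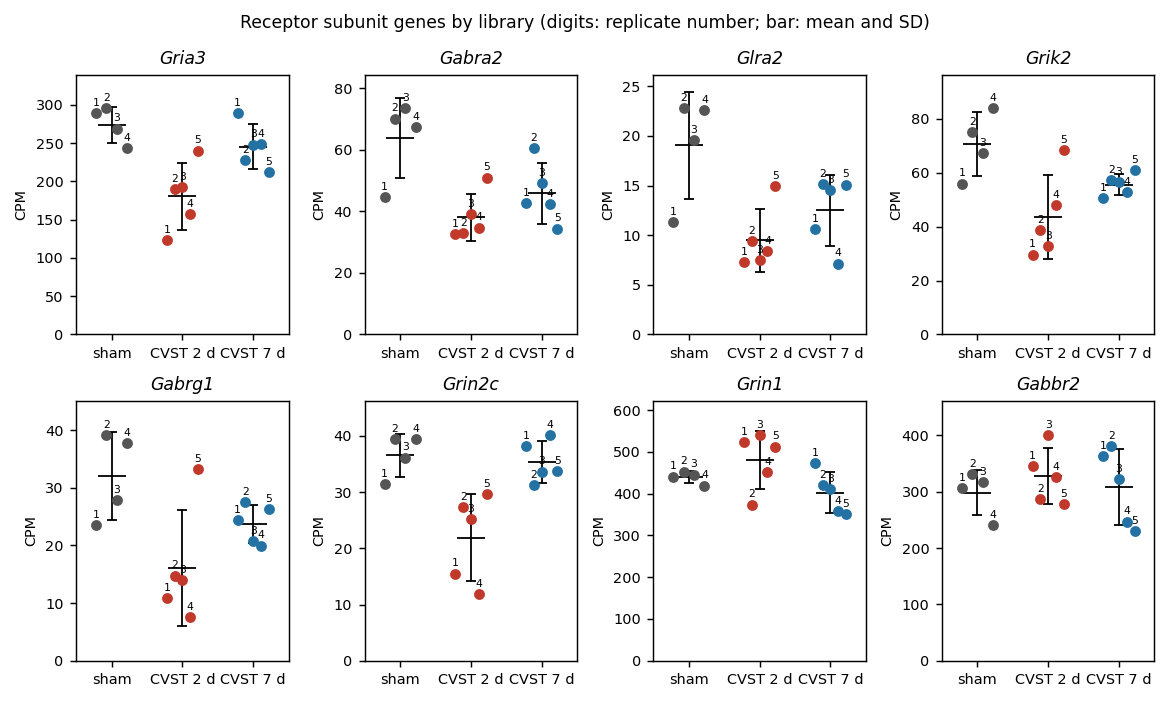
CPM of 8 receptor genes is plotted in each library, with the replicate number over each point and bars for the mean and SD of the group. The 2 d points lie below sham without overlap for Gria3 and Grin2c, CVST 2 d 5 is the highest 2 d library of the 6 genes from Gria3 to Grin2c, and Grin1 and Gabbr2 overlap between groups.

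Kainate receptors sit on both sides of the synapse, where they tune release as well as carry current. None of the 5 kainate genes was called in any comparison. Grik5, an obligatory partner subunit with high affinity for kainate, was the kainate gene with the most counts, at 172.5, 173, 198 and 196 CPM in sham, 208, 169, 208, 179.6 and 215.5 at 2 d and 174, 197.5, 179.8, 156 and 187 at 7 d. These groups overlapped, with log2 fold changes of 0.09 ± 0.09 (SE) at 2 d (edgeR adjusted p = 0.63) and -0.05 ± 0.09 (SE) at 7 d (adjusted p = 0.834). Grik2, which encodes the main channel-forming kainate subunit of cortex, was singled out after its values were seen. It was measured at 56.0, 75.2, 67.3 and 83.9 CPM in sham, 29.6, 38.7, 32.7, 48.0 and 68.5 at 2 d and 50.5, 57.3, 56.4, 53.0 and 60.9 at 7 d. Its 2 d libraries 1 to 4 lay below every sham library and CVST 2 d 5 among them (-0.70 ± 0.20 (SE), adjusted p = 0.0597). Grik1 (-0.40) and Grik3 (-0.21) were below 0 at 2 d and Grik4 above it (0.33), none called.

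Within the kainate sum of FPKM, Grik5 held 56.0% to 60.7% in the sham libraries, 60.5% to 70.2% at 2 d and 60.5% to 63.8% at 7 d. Grik2 held 13.5% to 19.2% in sham, 7.60% to 14.1% at 2 d and 12.6% to 14.6% at 7 d. Grik5 held the largest kainate share in all 14 libraries, and the ranges of sham and 2 d overlapped for both genes.

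**Figure D3:**
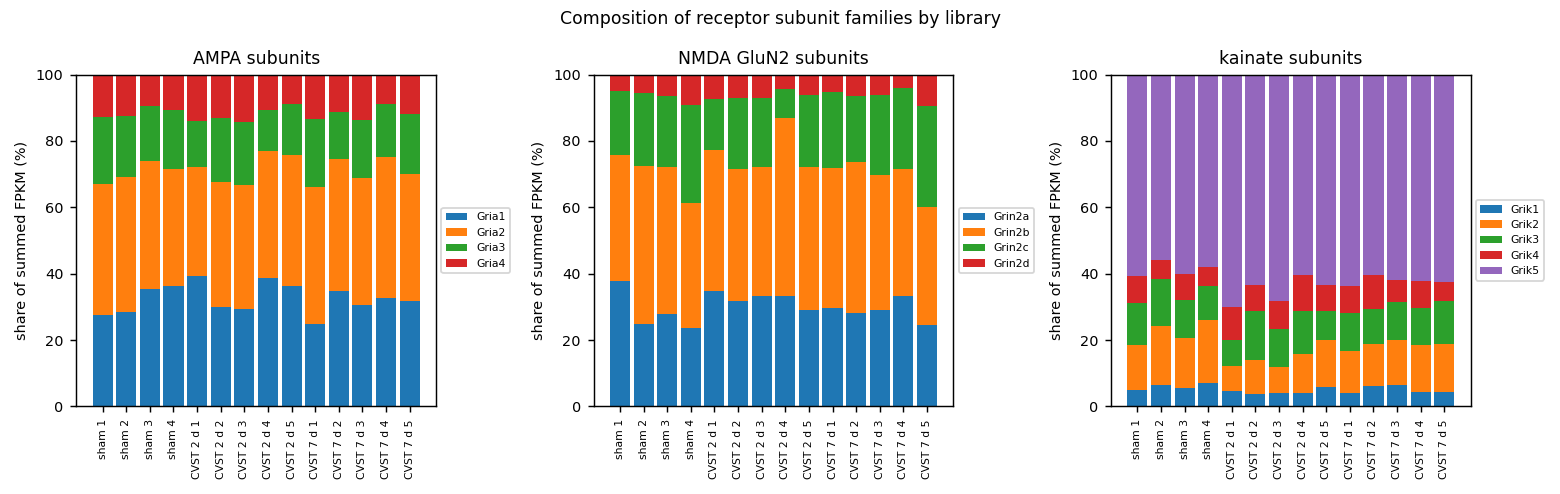
Each bar is 1 library and shows the share (%) of each gene in the summed FPKM of its family, for the AMPA, NMDA GluN2 and kainate subunits. Gria2 and Gria1 fill most of the AMPA bars, Grin2b and Grin2a most of the GluN2 bars, and Grik5 at least 56.0% of each kainate bar.

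NMDA receptors pass calcium and need glutamate together with glycine or D-serine, which binds the GluN1 subunit encoded by Grin1. Grin1 had 441, 453, 446 and 419.5 CPM in sham, 524, 374, 541, 452 and 513 at 2 d and 473, 419.7, 411, 358 and 352 at 7 d. At 2 d the libraries spread to both sides of the narrow sham range, and at 7 d libraries 3 to 5 lay below it. Grin1 differed by 0.13 ± 0.11 (SE) on the log2 scale at 2 d (edgeR adjusted p = 0.538), -0.13 ± 0.11 (SE) at 7 d (0.571) and -0.26 ± 0.10 (SE) between 7 d and 2 d (0.183). It was the member with an unadjusted p under 0.05 in the lower direction between 7 d and 2 d, where 10.6% of all genes met that rule.

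The GluN2 subunits set the kinetics of the receptor, and none of their genes was called. Grin2c, which encodes a subunit with weak magnesium block that astrocytes and some interneurons also express, was chosen after its values were seen. It had 31.35, 39.4, 36.1 and 39.4 CPM in sham, 15.5, 27.3, 25.1, 11.8 and 29.6 at 2 d and 38.1, 31.2, 33.6, 40.2 and 33.7 at 7 d. Every 2 d library lay below every sham library and below every 7 d library, and sham and 7 d overlapped. It differed by -0.74 ± 0.21 (SE) on the log2 scale at 2 d (edgeR adjusted p = 0.0618) and 0.69 ± 0.20 (SE) at 7 d against 2 d (adjusted p = 0.0745). Grin2a (-0.21), Grin2b (-0.40), Grin2d (-0.36) and the glycine-binding Grin3a (-0.54) were also below 0 at 2 d. Among GluN2 genes by FPKM, Grin2b held 41.9% ± 4.89 (SD, n = 4) in sham and 43.5% ± 5.88 (SD, n = 5) at 2 d, and Grin2c 23% ± 4.49 and 17.5% ± 5.59.

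Delta receptors link to presynaptic neurexins through cerebellins and open little to glutamate. Grid1 had 46.8, 65.65, 59.2 and 60.8 CPM in sham, 40.4, 37.6, 43.4, 49.4 and 57.1 at 2 d and 50.1, 53.0, 56.95, 43.3 and 45.15 at 7 d. The groups overlapped through sham 1, the lowest sham library, and the log2 fold change was -0.35 ± 0.13 (SE) at 2 d (edgeR adjusted p = 0.132) and -0.23 ± 0.13 (SE) at 7 d (0.356).

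Among the metabotropic glutamate receptors no gene was called. Grm5 (mGlu5), a group I receptor that couples to calcium release in neurons and astrocytes, had 174, 272, 258.5 and 223 CPM in sham, 119.5, 133, 133, 176 and 256 at 2 d and 172, 252, 229, 173.5 and 165 at 7 d. Of the 2 d libraries CVST 2 d 4 and 5 lay within the sham range and the others below it, giving -0.51 ± 0.21 (SE) (edgeR adjusted p = 0.186).

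Groups II and III lower the release of transmitter from the terminals they sit on. Grm3 (mGlu3), the group II gene with the most counts and one that astrocytes also express, had 51.4, 48.8, 45.0 and 36.9 CPM in sham, 38.8, 40.7, 42.5, 28.6 and 31.7 at 2 d and 48.9, 39.3, 45.4, 41.6 and 41.3 at 7 d (-0.32 ± 0.12 (SE) at 2 d, adjusted p = 0.153). The 2 d and sham values overlapped. Grm7 (mGlu7), of group III, had 56.6, 68.6, 68.3 and 68.9 CPM in sham, 63.0, 49.7, 60.8, 70.9 and 65.1 at 2 d and 65.0, 71.5, 71.4, 59.5 and 55.1 at 7 d (-0.08 ± 0.11 (SE) at 2 d, adjusted p = 0.692). Its groups overlapped throughout. Grm2 (-0.27), Grm4 (-0.30) and Grm8 (-0.08) were below 0 at 2 d, and Grm6, of retinal bipolar cells, had 0 counts in all 14 libraries.

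GABA-A receptors are built around alpha subunits, which contribute to the GABA and benzodiazepine sites. Gabra2 (ENSMUSG00000000560), whose protein lies at synapses on the axon initial segment, had 44.8, 70.2, 73.5 and 67.4 CPM in sham, 32.5, 32.85, 39.1, 34.7 and 50.95 at 2 d and 42.6, 60.7, 49.3, 42.25 and 34.4 at 7 d. Sham 1 stood below the other sham libraries, so that CVST 2 d 5 and CVST 7 d 2 and 3 fell into the sham range. Gabra2 differed from sham by -0.75 ± 0.18 (SE) on the log2 scale at 2 d (edgeR adjusted p = 0.0345), -0.48 ± 0.18 (SE) at 7 d (0.148), and by 0.27 ± 0.17 (SE) between 7 d and 2 d (0.384). The call at 2 d held without sham 1 or without CVST 2 d 5 (lowest adjusted p 0.00657) and ended without sham 2, 3 or 4 or without CVST 2 d 1, 2, 3 or 4 (0.0639 to 0.116). It ended too in 4 of 11 other fits (0.0545 to 0.0748), among them that without the 4 libraries high in striatum markers (-0.77, adjusted p = 0.0545).

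Of the other alpha genes Gabra4, a subunit of extrasynaptic receptors, had -0.41 ± 0.13 (SE) at 2 d (adjusted p = 0.0817). Gabra3 (-0.33) and Gabra5 (-0.23) were below 0 without a call. Of the summed alpha FPKM, Gabra2 held 3.24% to 5.69% in sham and 3.09% to 4.51% at 2 d. Gabra6, of cerebellar granule cells, was not tested and reached at most 0.157 CPM.

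Beta subunits bind GABA with the alpha subunits, and gamma subunits place the receptor at the synapse. At 2 d Gabrb1 had 96.6 CPM ± 26.7 (SD, n = 5) against 131 CPM ± 11.3 (SD, n = 4) in sham (-0.44 ± 0.17 (SE), edgeR adjusted p = 0.156). Gabrb2 had 256 CPM ± 31.5 (SD, n = 5) against 310.5 CPM ± 47.1 (SD, n = 4) (-0.28 ± 0.14 (SE), adjusted p = 0.28). Gabrg3 differed by -0.06 ± 0.17 (SE) (adjusted p = 0.877), and none of the 3 was called.

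Gabrg1, a gamma subunit that glia also express, was chosen after its values were seen. It had 23.5, 39.2, 27.9 and 37.8 CPM in sham, 10.8, 14.8, 13.9, 7.59 and 33.3 at 2 d and 24.3, 27.5, 20.8, 19.98 and 26.3 at 7 d. CVST 2 d 5 lay inside the sham range and the other 2 d libraries below it (-0.997 ± 0.32 (SE), edgeR adjusted p = 0.0899). Without CVST 2 d 5 its edgeR adjusted p was 0.00171, and without any other single library of the comparison it was not called (0.0957 to 0.235). Of 11 other fits it was not called in 6 (0.0817 to 0.18).

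Of the remaining GABA-A subunits, delta forms receptors outside the synapse. Gabrd, the delta subunit that responds to ambient GABA, had 60.6, 61.8, 37.8 and 56.1 CPM in sham, 34.4, 40.3, 51.05, 17.1 and 42.0 at 2 d and 58.1, 26.8, 40.9, 37.5 and 43.9 at 7 d. CVST 2 d 4 was the lowest library and the groups overlapped (-0.55 ± 0.26 (SE) at 2 d, edgeR adjusted p = 0.24). Gabre and Gabrq were near the filter, with 0.0654 to 0.969 CPM and 0.223 to 6.84 CPM over the libraries. The highest Gabrq values were in sham 4 and sham 2, which are 2 of the libraries high in striatum markers. Gabrp and the rho genes Gabrr1, Gabrr2 and Gabrr3, known from retina, were not tested and were at or below 0.765 CPM.

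GABA-B receptors need both subunits, one to bind GABA and one to couple the G protein. Gabbr1 had 665.5, 720.5, 648 and 683 CPM in sham, 640.2, 568, 614, 617 and 628 at 2 d and 627, 654, 623, 558 and 537 at 7 d. All 2 d libraries lay below all sham libraries, by a small margin, and CVST 7 d 2 reached into the sham range. On the log2 scale Gabbr1 differed by -0.15 ± 0.07 (SE) at 2 d (edgeR adjusted p = 0.263) and -0.18 ± 0.07 (SE) at 7 d (0.19). Gabbr2 was above 0 at both times (0.13 and 0.05).

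Glycine receptor genes were led by Glrb, which encodes the beta subunit that binds gephyrin. It had 271, 271, 231 and 219 CPM in sham, 242, 237, 274, 234 and 206 at 2 d and 291.5, 232, 237, 211 and 191 at 7 d, and these groups overlapped (-0.06 ± 0.12 (SE) at 2 d, edgeR adjusted p = 0.824). Glra2, the alpha subunit of the developing brain, was chosen after its values were seen. It had 11.3, 22.8, 19.6 and 22.6 CPM in sham, 7.28, 9.37, 7.46, 8.36 and 14.9 at 2 d and 10.6, 15.1, 14.55, 7.14 and 15.1 at 7 d. The 2 d libraries 1 to 4 lay below every sham library and CVST 2 d 5 above sham 1 (-1.01 ± 0.27 (SE), adjusted p = 0.0501).

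Glra3 had -0.66 at 2 d and -0.51 at 7 d, not called. Glra1, the alpha subunit of adult spinal cord and brainstem, was not tested. Its counts were 1, 13, 1 and 6 in sham, 28, 11, 1, 76 and 3 at 2 d and 4, 2, 2, 0 and 1 at 7 d, so that CVST 2 d 4 and CVST 2 d 1 held most of them. In those libraries the summed cerebellum and hindbrain markers were 15.9 and 24.6 CPM, above every sham library, while CVST 2 d 2 and 3, with 11 counts and 1 count of Glra1, had 25.2 and 24.7 CPM. The summed hippocampus markers were 624.8 and 521.9 CPM there, the highest of the 14 libraries. Choroid plexus markers summed to 510.6 and 461.1 CPM there, against 7.73 to 84.2 in the other 2 d libraries and 15.1 to 895.6 in sham. The part of these regions in the counts of Glra1 was not tested. Glra4 had at most 0.131 CPM.

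**Figure D4:**
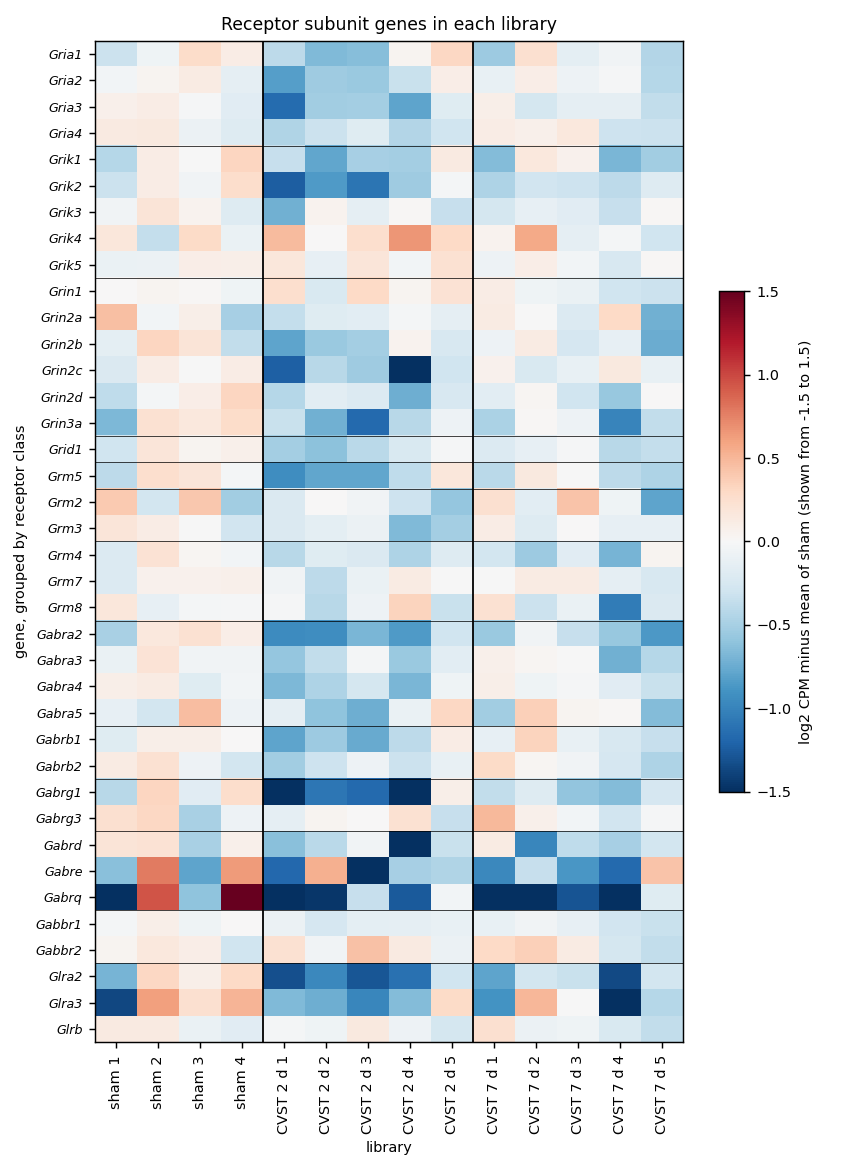
Each cell is log2 CPM of 1 gene in 1 library minus its sham mean, for 38 of the 43 tested genes grouped by class, with colours limited to -1.5 to 1.5. The columns of CVST 2 d 1 to 4 are mostly blue (29 to 34 of the 38 genes below the sham mean), that of CVST 2 d 5 less so (27 of 38), and the 7 d columns range from 20 to 35 of 38.

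Libraries of a group differed in how far the members lay from sham. The median over the 43 genes was -0.45, -0.40, -0.26, -0.36 and -0.09 in CVST 2 d 1 to 5, on the log2 scale against the sham mean. At 7 d it was -0.08, 0.02, -0.08, -0.28 and -0.34 in libraries 1 to 5. Sham libraries themselves ran from -0.12 in sham 1 to 0.13 in sham 2.

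At an unadjusted p under 0.05, 17 of 43 members were lower at 2 d and 0 higher, where 9.38% of all genes were lower and 12.3% higher. They included 3 of 4 AMPA and 3 of 6 NMDA genes. Complete separation below sham was found for 3 members (Gabbr1, Gria3 and Grin2c) and above sham for 0. Over all genes 3.06% lay wholly below and 5.65% wholly above sham.

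At 7 d the unadjusted rule gave 5 lower members (Gabbr1, Gabra2, Gabrq, Glra2 and Grm4) and 0 higher, with 7.91% and 11.7% of all genes. No member was separated from sham, against 3.87% of genes wholly below and 5.8% wholly above. Among all genes 3.61% were called higher and 0.833% lower at 7 d by edgeR. The members below 0 numbered 39 of 43, but 31 without the 4 libraries high in striatum markers and 23 when libraries were scaled to the pan-neuronal markers, a scaling that moved the median of all genes to 0.12.

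Between 7 d and 2 d, 1.54% of all genes were called higher and 1.25% lower, and none of these was a member. At an unadjusted p under 0.05, 6 members were higher (Gabra4, Gabrb1, Gria3, Gria4 and Grin2c among them), where 10.3% of all genes were, and Grin2c alone of the 43 was wholly above its 2 d values (2.28% of all genes wholly above, 2.13% wholly below). Of the 43 members 33 had a log2 fold change above 0. Without CVST 2 d 5, 11 members were called lower at 2 d, where 4.59% of all genes were, and 7 were called higher at 7 d than at 2 d, where 3.58% of all genes were.

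Base composition of the transcripts was set beside these values. Across the 43 genes, which are not independent replicates, the rank correlation of the log2 fold change with the GC content of the longest coding transcript (GENCODE vM21) was 0.299 at 2 d, 0.170 at 7 d and -0.402 between 7 d and 2 d. Over 14811 genes it was 0.123, -0.105 and -0.235. The 15 members of lowest GC (35.2% to 43%) had a median of -0.44 at 2 d and all lay below 0, and the 14 of highest GC (49.2% to 65.0%) had -0.29, with 10 below 0. By library the correlation was 0.207 to 0.436 in CVST 2 d 1 to 4 and -0.114 in CVST 2 d 5, and its part in the results was not tested.

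**Figure D5:**
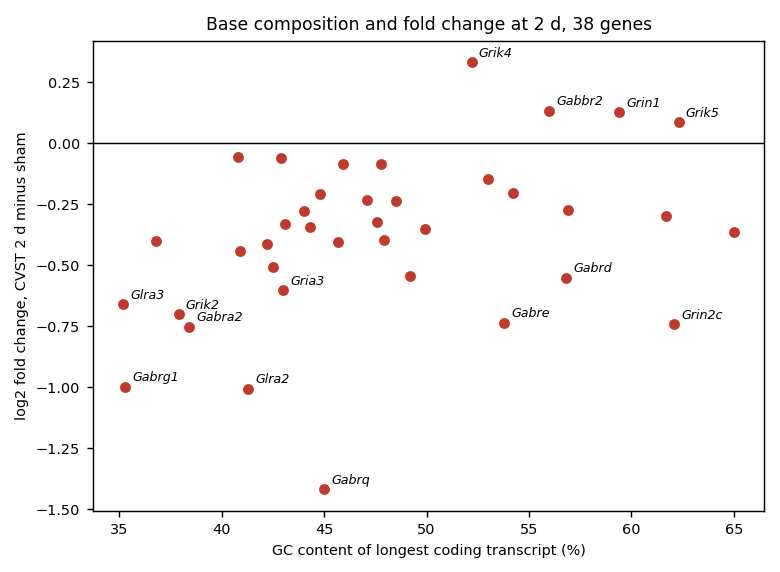
The log2 fold change at 2 d against sham is plotted over the GC content (%) of the longest coding transcript for 38 of the 43 tested genes, and genes beyond -0.55 or above 0 are named. The 4 genes above 0 have a GC content of 52.2% or more, and the 10 genes beyond -0.55 span 35.2% (Glra3) to 62.1% (Grin2c), with Gabra2, Gria3, Grik2, Gabrg1, Glra2 and Glra3 at 43% or below, Gabrq at 45.0%, and Gabre, Gabrd and Grin2c at 53.8% or more.

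Proteins that accompany the receptors were examined in 4 lists. Of 18 auxiliary subunits of AMPA and kainate receptors and of 19 anchors and partners of GABA and glycine receptors, none was called in any comparison. Against sham, 14 of the 18 lay below 0 at 2 d (median -0.13) and 16 at 7 d (-0.20). Of the 19, 14 lay below 0 at 2 d (median -0.17) and 15 at 7 d (-0.16). Of 25 glutamatergic scaffold and clustering genes, Dlg4, which encodes PSD-95, fell to 599.6 CPM at 2 d and 598 at 7 d from 721.5 in sham, with log2 fold changes of -0.27 ± 0.07 (SE) and -0.27 ± 0.07 (SE) (edgeR adjusted p = 0.0477 and 0.0431). All 10 CVST libraries lay below all 4 sham libraries. Its 2 d call held without CVST 2 d 5 and ended without any other single library (0.0804 to 0.143). It also ended in 6 of 11 other fits, among them the replicate block (0.106), the fit without the 4 libraries high in striatum markers (0.119) and pan-neuronal scaling (0.193).

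At 7 d Shank3, a scaffold beneath PSD-95, also fell (-0.27 ± 0.07 (SE), adjusted p = 0.0479), a call that held without CVST 7 d 1 and ended without any other single library (0.0592 to 0.145). Without CVST 7 d 1 or CVST 7 d 2 the 7 d call of Dlg4 held, and it ended otherwise (0.0658 to 0.128). Of 11 other fits the 7 d call ended in 5 for Dlg4 (0.0791 to 0.461) and in 9 for Shank3 (0.0531 to 0.623), with the highest value of each under pan-neuronal scaling. Nptx2, which clusters AMPA receptors, had 52.0 CPM in sham, 115 at 2 d and 38.2 at 7 d. Its libraries ran from 46.7 to 58.6 CPM in sham and from 51.0 to 228.5 at 2 d, and it was not called between these groups. Nptx2 was lower at 7 d than at 2 d (-1.59 ± 0.31 (SE), edgeR adjusted p = 0.0179). That call ended with only the 2 groups in the fit (0.0625) and with the replicate block (0.0785). The list as a whole had medians of -0.20 at 2 d and -0.23 at 7 d.

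Of the 21 tested genes for transporters and enzymes, Gldc, a glycine-degrading enzyme of astrocytes, had 25.35, 30.6, 35.1 and 32.3 CPM in sham, 13.4, 17.5, 16.6, 13.0 and 24.7 at 2 d and 29.6, 37.2, 36.2, 43.8 and 30.7 at 7 d. Every 2 d library lay below every sham and every 7 d library. Gldc fell at 2 d (-0.86 ± 0.17 (SE), edgeR adjusted p = 0.0193) and was higher at 7 d than at 2 d (1.06 ± 0.17 (SE), adjusted p = 0.00867), the first call ending without sham 2, 3 or 4 or CVST 2 d 1 (0.0511 to 0.0756) and with pan-neuronal scaling (0.0911). Of the 21 genes 18 lay below 0 at 2 d (median -0.24) and 14 at 7 d (-0.06) against sham.

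The glutamate transporters of astrocytes, which clear glutamate from the synapse, were higher at 7 d than at 2 d. Slc1a2 (GLT-1) had means of 2146 CPM in sham, 1558 at 2 d and 2600 at 7 d (0.74 ± 0.15 (SE) between the times, edgeR adjusted p = 0.0179, 0.0565 without CVST 2 d 1), and the call ended too with only these 2 groups in the fit (0.0509) and with the replicate block (0.0773). Slc1a3 (GLAST) had 0.55 ± 0.13 (SE) (adjusted p = 0.0433), a call that held without CVST 2 d 5 or CVST 7 d 5 and ended without any other single CVST library (0.0538 to 0.118) and in 5 of 11 other fits (0.0506 to 0.106). Both are also in the astrocyte marker list, of which 3 of 12 genes, these and Gja1, were higher at 7 d than at 2 d.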

How the data were processed

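For 14 samples the authors deposited whole-number read counts by gene and FPKM values, in which fragments are scaled to transcript length and library size. The submitters' processing notes name fastp, HISAT2, DESeq2 1.16.1 and build mm39; the role of each, the counting tool, strand setting and annotation are not stated. Reads of a gene and of an antisense or overlapping gene therefore cannot be told apart. The deposited FPKM mostly followed count over length. Over 40 members with at least 100 counts, the implied length had a median coefficient of variation of 2.31% and a highest of 10.4%. For Gabrg3, mean FPKM went from 3.36 in sham to 3.93 at 2 d while mean CPM went from 23.9 to 22.9. Shares by FPKM are therefore not set by counts alone. Of 55894 entries, 535 without an Ensembl gene (0.203% to 0.278% of counts) were left out.

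One model of group means was fitted to the 14 samples (edgeR 4.0.16, R 4.3.3; TMM factors; filterByExpr, which kept 16918 genes). Contrasts were tested by edgeR's quasi-likelihood test, 2-sided, p-values were adjusted by Benjamini-Hochberg over those genes, and genes under 0.05 were called. Each SE is the log2 fold change divided by the root of F. Levels are CPM with TMM factors. Log2 CPM used a prior count of 2. The edgeR fitting code was tested on counts simulated with known changes at 2 d against sham and with less spread than these data. Chi-square per degree of freedom was at least 8.07 between replicates of a group, so no library was a copy of another in its group. Alternatives used DESeq2 1.42.0, limma 3.58.1 with voom and sample weights, limma on log2(FPKM + 0.1), other filters and scalings, a replicate block and samples left out. Intervals for counting error are not given, since the spread between samples exceeded it.

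Members are described by class, and 5 tested members are not reported here by name. Full values are given for called members and, in a class without a call, for the tested gene of highest mean CPM where it is reported; of the 4 companion lists, called genes are named (at most 5). The members, lists and rules were chosen with earlier results of these data known. Coordinates in mm39 are not given, and protein sequences were not used here.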

Additional observations from a re-analysis of the deposited data

Results flagged for a closer look

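In 129 groups of samples (3 groups for each of 43 tested genes), a single library stood apart from the rest of its group for 6 genes and groups, by the gap to the nearest other library relative to the range of the group. Chance alone would set apart about 1 in 20 groups. In CVST 2 d 5, Gabrg1 stood at 33.3 CPM against 7.59 to 14.8 in the other 2 d libraries, Glra2 at 14.9 against 7.28 to 9.37, and Glra3 at 21.3 against 8.77 to 11.1. In sham 1, Grin3a was at 33.9 CPM against 60.4 to 65.3 in the other sham libraries, and Grm7 at 56.6 against 68.3 to 68.9. In sham 2, Gabra3 was at 182.6 CPM against 148.5 to 153.3.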

How the results depend on the processing

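Counts of called members are given with the share of all genes called in that direction in the same fit. Of the 2 members lower at 2 d, the count was 7 with DESeq2's Wald test (2.14% of all genes), 14 with voom and sample weights (7.07%), 1 with only sham and 2 d in the fit (0.731%) and 0 with limma on log2 FPKM (0.361%), and leaving out 1 library at a time gave 0 to 11 (0.0931% to 4.59%). After the data were seen, 3 alternatives were added: without CVST 2 d 5 and CVST 7 d 2 the count was 11 (4.61%), without the 4 libraries high in striatum markers 4 (0.682%), and scaled to 12 pan-neuronal markers 0 (0.0828%). At 7 d against sham the count of 0 lower became 1 with DESeq2's Wald test (1.72%) and 1 without CVST 2 d 5 and CVST 7 d 2 (1.09%). Between 7 d and 2 d the count of 0 higher became 2 with DESeq2's Wald test (3.98%; 0 lower became 1, 3.94%), 6 with voom (3.46%), 0 to 7 leaving out 1 library (0.581% to 3.58%), 5 without CVST 2 d 5 and CVST 7 d 2 (2.97%) and 6 without the 4 libraries (2.58%). The cause was not tested. With a replicate block, 3 members were lower at 2 d (0.763% of all genes), namely Gabrg1, Glra2 and Grik2. Gabra2 (edgeR adjusted p = 0.068) and Gria3 (0.0831) were not called there. Between samples of the same number, the correlation of deviations from group means passed 0.1 in 0 of 4, 2 of 4 and 0 of 5 pairs. It ran from -0.438 to 0.28 in these pairs and from -0.327 to 0.342 between different numbers. Whether the numbers pair samples cannot be told from such overlapping values.

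Small fold changes turned sign, none of them called. At 2 d, Glrb was 0.031 with voom, 0.0055 with the replicate block and 0.0018 without CVST 2 d 5 and CVST 7 d 2, and Grm7 was 0.014 with log2 FPKM. At 7 d against sham, Grm7 was 0.014 with voom, Grik5 was 0.019 with log2 FPKM, and Grm7 was 0.095 without the 4 libraries high in striatum markers. Scaled to pan-neuronal markers, they were 0.081 for Grik5, 0.061 for Grm3, 0.095 for Grm7 and 0.023 for Glrb. Leaving out 1 library, Grm7 ran from -0.084 to 0.027. Between 7 d and 2 d, Gabbr1 was 0.015 with voom, 0.014 without the 4 libraries and 0.071 with pan-neuronal scaling, Glrb was 0.061 with that scaling, and Grm7 was -0.042 with log2 FPKM. Leaving out 1 library there, Grm7 ran from -0.011 to 0.11, Glrb from -0.13 to 0.026, Gabrd from -0.017 to 0.31 and Gabbr1 from -0.064 to 0.0052.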

Other observations

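Levels can be ordered between genes by FPKM, which the count-based tests do not use. In sham, Gabbr1 of the GABA-B receptor stood highest of the 52 genes at 222.6 ± 6.32 FPKM (SD, n = 4). Grin1 had 113.4 ± 3.10, Gria2 103.5 ± 12.7 and Glrb 87.5 ± 8.06. The intervals of 1 SD of Grin1 and Gria2 overlapped, while Gabbr1 lay apart from these genes. Glrb, the glycine receptor beta subunit, was far above the alpha subunits it pairs with, since Glra2 had 6.40 ± 1.84 FPKM and Glra3 3.17 ± 1.31. At 2 d Gabbr1 had 210.4 ± 7.79 FPKM (SD, n = 5) and Grin1 127.9 ± 16.7.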
